A study of Mus musculus with 17 samples.

Results

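Collagen genes were described over 17 primary abdominal neuroblastomas of TH-MYCN mice. They were the genes whose single symbol in the array's annotation has the form Col, a number, a and a number. This gave 42 of 18193 measured genes, of which 11 encode chains of fibrillar collagens, 9 chains of collagens of the basement membrane zone and 22 chains of other types. The tumors arose in hemizygous mice on an inbred background that carry MYCN under the tyrosine hydroxylase promoter, which is active in cells of the neural crest lineage. Each tumor was measured on 1 whole-genome mouse array from total RNA of bulk tissue. All 17 belong to 1 group with no control tissue, the labels give no age, sex or weight of a tumor, and the tumors are named mad548 to mad565 after the submitters' numbers.

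Collagens are the chief structural proteins of the extracellular matrix. Their chains wind into helical trimers, and a collagen type is defined by which chains combine. Fibrillar collagens (types I, III and V in soft tissue, types II and XI in cartilage) form the cords that fibroblasts lay down, type IV forms the mesh of basement membranes under endothelium, and type VI forms beaded filaments around many mesenchymal cells. In solid tumors most collagen is made by fibroblasts, by the mural cells of vessels (pericytes and smooth muscle) and by endothelium, rather than by the tumor cells.

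All values are log2 expression values (1 unit is a doubling). The number of arrays limits how precise means, slopes and correlations over the tumors are. The array medians lay between 6.28 and 6.51. Markers of the sympathoadrenal lineage, which check the labelled tissue, were high in every tumor (mean of 9 genes 11.62 to 12.22). Skeletal muscle markers were high in mad549, mad550 and mad553 (10.18 to 12.45, against 5.77 to 6.86 in the other 14 tumors), and liver markers in mad562 (9.99) and mad559 (7.39, against at most 5.60 elsewhere). Of the 11 measured cartilage and bone genes, 1 had a mean at or above 6.34, the median of the array medians.

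Of the 42 collagen genes, 22 had a mean at or above that median and 20 a mean below it. Each gene was read from its probe set of highest mean. Levels of different genes are not compared, since probe sets differ in how brightly they bind, and in bulk tissue fewer cells of a type and less RNA per cell cannot be told apart. The 22 comprised 7 fibrillar, 5 basement membrane and 10 other collagens. Col1a2, Col3a1, Col4a1 and Col4a2 were in the top 25% of the array's probe sets with a single gene symbol in every tumor.

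Of the fibrillar genes, those of types I and III, the bulk of interstitial fibers, varied by more than a doubling. Col1a1, the alpha-1 chain of type I, ran from 8.87 in mad563 through a median of 10.40 to 11.22 in mad553 (mean 10.34 ± 0.63, SD, n = 17). Its partner Col1a2 ran from 10.65 in mad563 through 11.94 to 13.20 in mad555 (12.04 ± 0.63). Col3a1, the only chain of type III, ran from 9.85 in mad563 through 11.74 to 12.35 in mad555 (11.62 ± 0.67), a range of 5.67-fold. All 3 genes were lowest in mad563. Type V starts fibrils and sets their width. Col5a1 ran from 8.67 in mad563 through 9.28 to 10.19 in mad555 (9.30 ± 0.40). Col5a2 ran from 8.43 in mad563 through 9.88 to 11.11 in mad555 (9.97 ± 0.64). Both had the same lowest and highest tumor. Col5a3, a further type V chain, ran from 6.16 in mad559 through 6.97 to 7.55 in mad556 (7.0 ± 0.38). Col27a1, a fibrillar collagen best known in cartilage, ran from 6.92 in mad558 through 7.93 to 9.17 in mad554 (7.93 ± 0.58), and its extremes were in other tumors than those of types I, III and V. The cartilage chains Col2a1, Col11a1 and Col11a2 and the bone-associated Col24a1 had means of 5.34, 5.38, 5.15 and 4.37.

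Among the collagens of the basement membrane zone, the common type IV chains varied less. Col4a1 ran from 11.64 in mad559 through 12.16 to 12.97 in mad555 (12.19 ± 0.34), and Col4a2 from 10.45 in mad559 through 10.89 to 11.74 in mad555 (10.94 ± 0.30). The tumors at both ends were the same for the chains, and mad550 was second highest for both. In GRCm38.p6 these genes start on opposite strands of chromosome 8, Col4a1 at 11312826 on the minus strand and Col4a2 at 11312805 on the plus strand, 21 bases apart. The restricted type IV chains known from kidney and lung, Col4a3, Col4a4, Col4a5 and Col4a6, had means of 4.51 to 5.12, all below the array median. Types XV and XVIII link basement membranes to the matrix around them, and a fragment of type XVIII is the angiogenesis inhibitor endostatin. Col18a1 ran from 8.15 in mad559 through 9.28 to 10.17 in mad555 (9.18 ± 0.58). Col15a1 ran from 6.41 in mad563 through 7.01 to 7.71 in mad555 (7.03 ± 0.43). Col7a1, the chain of the anchoring fibrils of skin, ran from 6.01 in mad562 through 6.68 to 7.32 in mad554 (6.63 ± 0.34), and in mad555, the highest tumor for the other 4 genes, it stood at 6.32.

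The 3 common type VI chains shared their extreme tumors. Col6a1 ran from 8.80 in mad563 through 9.86 to 10.60 in mad550 (9.89 ± 0.51), Col6a2 from 8.81 in mad563 through 9.76 to 10.79 in mad550 (9.88 ± 0.51), and Col6a3 from 8.61 in mad563 through 10.15 to 11.11 in mad555 (10.07 ± 0.65). For all 3, mad563 was the lowest tumor and mad550 and mad555 were the highest 2. Col6a4 and Col6a5, which can take the place of the alpha-3 chain, had means of 5.28 and 3.88.

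The 250 bases before the RefSeq start of each common type VI chain are shown because these genes moved together, with Col1a2 as a fibrillar gene to set against them. Capitals mark CCTCCC or its complement GGGAGG, a motif picked after the sequences had been read, and overlapping matches are counted separately. The build is GRCm38.p6. The windows are chr10:76726045-76726294 (minus strand) for Col6a1, chr10:76623405-76623654 (minus) for the first of the listed Col6a2 starts by coordinate, chr1:90843972-90844221 (minus) for Col6a3 and chr6:4505368-4505617 (plus) for Col1a2.
Col6a1: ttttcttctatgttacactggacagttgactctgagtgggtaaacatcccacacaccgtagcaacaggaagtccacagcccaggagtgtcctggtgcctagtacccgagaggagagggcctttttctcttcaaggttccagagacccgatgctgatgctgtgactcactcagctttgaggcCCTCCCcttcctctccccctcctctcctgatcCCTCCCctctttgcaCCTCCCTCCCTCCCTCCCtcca
Col6a2: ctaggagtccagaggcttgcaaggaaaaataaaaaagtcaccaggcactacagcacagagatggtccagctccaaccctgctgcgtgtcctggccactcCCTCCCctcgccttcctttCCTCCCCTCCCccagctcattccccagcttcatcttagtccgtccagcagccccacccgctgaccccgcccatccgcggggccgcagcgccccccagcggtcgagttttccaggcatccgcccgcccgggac
Col6a3: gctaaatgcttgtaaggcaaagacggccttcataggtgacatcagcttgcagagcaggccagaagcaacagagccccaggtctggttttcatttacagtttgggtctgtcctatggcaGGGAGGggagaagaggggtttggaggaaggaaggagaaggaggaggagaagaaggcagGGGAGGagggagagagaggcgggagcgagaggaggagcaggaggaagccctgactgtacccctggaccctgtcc
Col1a2: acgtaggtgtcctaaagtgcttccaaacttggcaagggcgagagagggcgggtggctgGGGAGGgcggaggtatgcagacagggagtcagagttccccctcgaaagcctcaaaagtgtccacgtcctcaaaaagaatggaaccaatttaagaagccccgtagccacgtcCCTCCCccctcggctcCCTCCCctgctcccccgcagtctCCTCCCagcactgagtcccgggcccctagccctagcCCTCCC
The motif occurred 6 times in the Col6a1 window, 3 times in that of Col6a2, 2 times in that of Col6a3 and 5 times in that of Col1a2. The window of the other listed Col6a2 start, chr10:76623631-76623880, held 1 match and 1 GC box, so the Col6a2 counts depend on the start chosen. At least 1 match on either strand was in 38% of all 32851 RefSeq windows of this length, and 3 or more matches in 4.76%. The motif was thus not particular to type VI. The GC box GGGCGG or its complement was found 3 times for Col6a2, 2 times for Col1a2 and not for Col6a1 or Col6a3 (32.7% of all windows hold one), CCAAT or its complement 1 time for Col1a2 alone of the 4 (33.8%), and TATAAA in none of the 4 (12.4%). A match is a description of letters and no evidence of binding.

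Of the remaining collagens, Col8a1 had the widest range but 1. It encodes a short-chain collagen of vessel walls, made by smooth muscle cells and endothelium, and ran from 7.31 in mad563 through 8.92 to 10.26 in mad555 (9.0 ± 0.71), a range of 7.73-fold. Col14a1, which binds the surface of type I fibrils, ran from 6.42 in mad551 through 7.61 to 9.42 in mad555 (7.74 ± 0.78), a range of 8.02-fold. In both genes mad555 was the highest tumor, while the lowest tumor differed. Col12a1, its close relative, ran only from 6.47 in mad559 through 6.97 to 7.29 in mad553 (6.98 ± 0.23), but its second probe set had an SD of 0.58 and correlated with it at r = 0.55. Col16a1, another fibril-associated chain, ran from 7.68 in mad564 through 7.96 to 8.39 in mad554 (7.99 ± 0.21). Col25a1, a membrane collagen of neurons, ran from 6.68 in mad562 through 6.93 to 7.26 in mad548 (6.96 ± 0.19). On the probe sets of highest mean, these 3 genes varied little beside Col8a1 and Col14a1. The other probe set of Col25a1, with a mean of 5.8 below the array median, had an SD of 0.74. It correlated with the first at r = 0.14.

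Type IX coats the fibrils of cartilage, and its chains went their own way. Col9a1 ran from 6.35 in mad554 through 6.96 to 8.64 in mad553 (7.08 ± 0.60), with mad558 second at 8.2. Its second probe set had an SD of 0.20 and correlated with the first at r = 0.45. Col9a3 ran from 5.99 in mad559 through 6.72 to 8.57 in mad563 (6.78 ± 0.64), and the second tumor, mad555, stood at 7.39. Col9a3 was therefore highest in the tumor where Col1a1, Col1a2, Col3a1, Col5a1, Col5a2 and the common type VI chains were lowest. Col9a2 had a mean of 4.47.

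The other genes below the array median were Col10a1 (a chain of growth plate cartilage), the membrane collagens Col13a1, Col17a1 and Col23a1, the fibril-associated Col19a1, Col20a1 and Col22a1, Col8a2 (the partner of Col8a1) and Col26a1. Their means lay between 4.14 and 6.29, that of Col13a1 being the nearest to the array median. Values this low carry little information on differences between tumors. Col4a4, Col4a5, Col6a5, Col8a2, Col9a2 and Col26a1 were in the lowest 25% of probe sets with a single gene symbol in all 17 tumors.

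**Figure D1:**
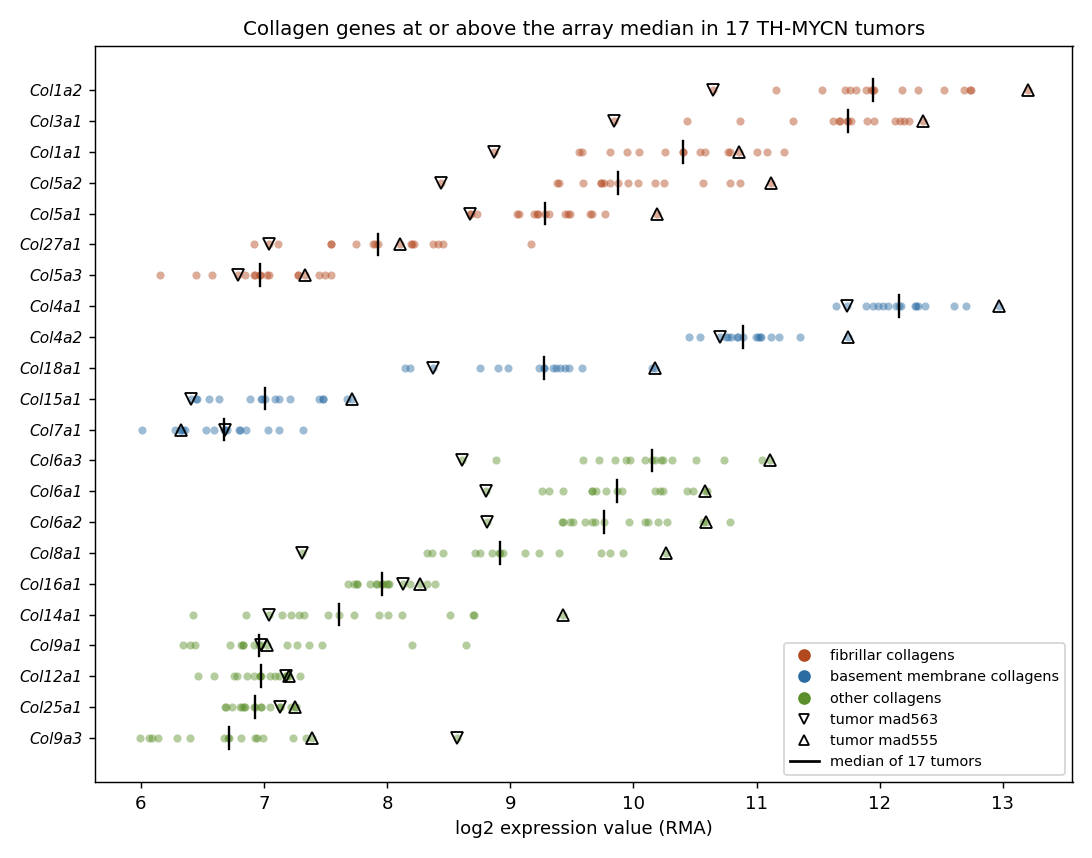
Log2 expression values (x axis) of the 22 collagen genes at or above the array median (y axis) in 17 tumors; each point is a tumor, black ticks are medians, and open triangles mark mad563 (down) and mad555 (up). The plot shows mad563 lowest for types I, III and VI and highest for Col9a3, and levels are to be read within a gene.

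The spread of collagen genes over the tumors was wide. An SD of at least 0.5 was found for 14 of the 42 genes (33.3%), against 6.79% of all 18193 genes. Of the 22 genes at or above the array median, 13 (59.1%) had such an SD, against 7.7% of the 11238 genes at that level. The 14 were 6 fibrillar genes (Col1a1, Col1a2, Col3a1, Col5a2, Col11a1 and Col27a1), 1 basement membrane gene (Col18a1) and 7 others (Col6a1, Col6a2, Col6a3, Col8a1, Col9a1, Col9a3 and Col14a1). This count has no test. With all probe sets of a gene averaged it was 8, and with a median absolute deviation in place of the SD 9. The median SD of all genes was 0.19.

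A few tumors held most of the extremes. Of the 22 genes, mad555 was highest in 11 and mad563 lowest in 10, and mad559 was lowest in 6. In mad555, 21 of 22 genes were above their own median over the tumors, in mad553 and mad554 19 each. In mad559 it was 3, and in mad548, mad549 and mad551 4 each. Mean deviations of the groups differed in size. In mad563 the mean deviation from the gene means was -1.13 for the fibrillar genes and -0.42 for the basement membrane genes, and in mad561 it was -0.51 and -0.19. Both groups were thus low in these tumors. The basement membrane genes also spread less (median SD of those at or above the array median 0.34, against 0.63 for the fibrillar genes). They include Col7a1, which deviated by 0.05 in mad563 and 0.40 in mad561. In mad550 the basement membrane genes deviated more, with 0.49 against 0.15 for the fibrillar genes. In mad559 Col1a1, Col1a2, Col3a1, Col5a1 and Col5a2 deviated by -0.08 on average, Col5a3 by -0.84 and the common type VI chains by -0.74 on average. These tumors are single samples, so the differences between them have no replicate error. Skeletal muscle markers were high in mad550 and mad553, and liver markers raised in mad559, and the part of that tissue in the collagen values of these tumors was not tested.

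**Figure D2:**
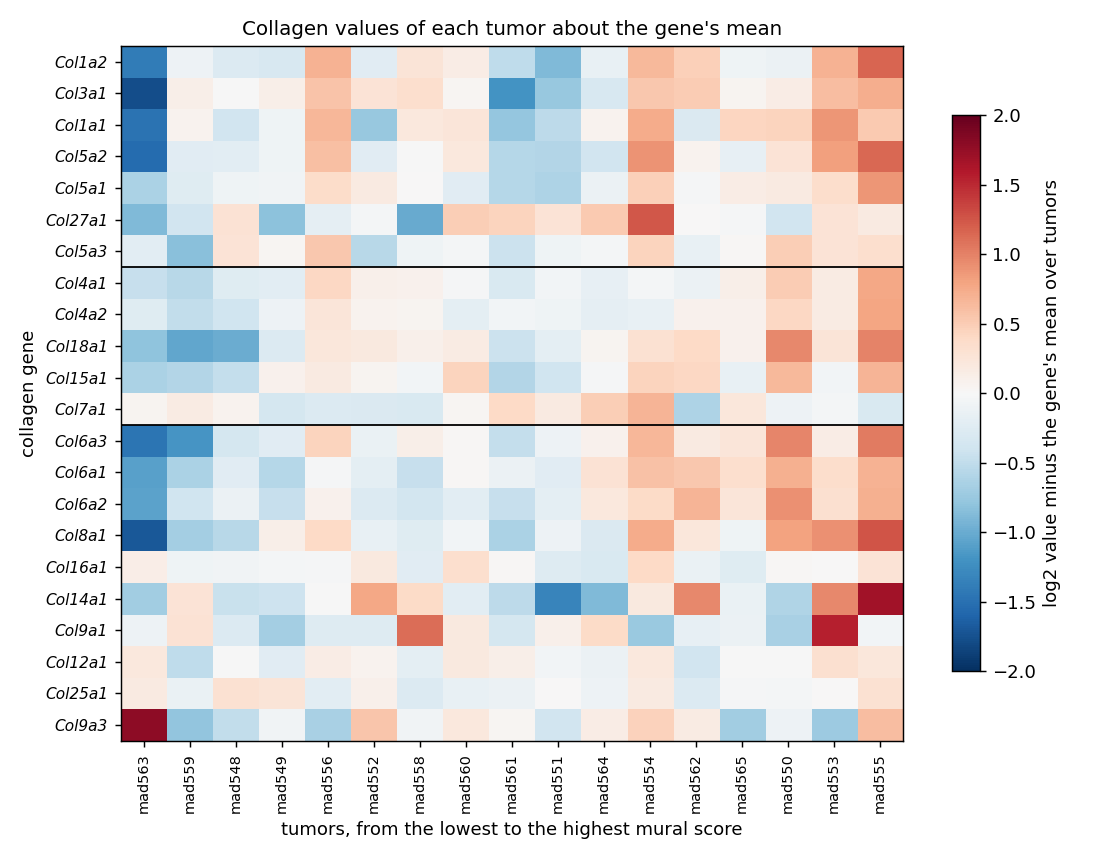
Log2 value of each collagen gene (rows, in the 3 groups divided by lines) minus its mean over the 17 tumors, with tumors (columns) ordered from the lowest to the highest mural score; red is above and blue below the mean. The blue column of mad563, with Col9a3 in red, and the red column of mad555 stand out.

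The chains of 1 collagen type can combine in trimers, so the pairs were compared over the tumors. Of 10 pairs of chains of 1 type, 5 passed the test (limma on the first chain over all genes, Benjamini-Hochberg adjusted p under 0.05), all 5 among the 6 pairs with both chains at or above the array median. Type VI gave 2 of them, as Col6a1 was set against both of its partners.

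Col6a1 and Col6a2 were the closest pair (r = 0.95, permutation p = 1e-05, the smallest that 100000 permutations can give, and rho = 0.91, p = 2e-05, adjusted p by limma 8.73e-06). Col6a2 was also the gene most like Col6a1 of all 18192 others. Leaving out mad550 and mad563, which lay farthest from the median value of Col6a1, gave an r of 0.93. Col6a1 and Col6a3 correlated at r = 0.87 (rho = 0.86, permutation p = 1e-05 and 2e-05, adjusted p by limma 0.00268), and without mad550 and mad563 the adjusted p was 0.081 (limma). Of all genes tested against Col6a1, 0.885% passed with a positive slope, and of the 41 collagens 6 did (Col6a2, Col6a3, Col8a1, Col18a1, Col15a1 and Col5a2).

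Col4a2 was likewise the gene most like Col4a1 of all others (r = 0.92, rho = 0.84, permutation p = 1e-05 and 4e-05, adjusted p by limma 0.00261). The SD of the log2 ratio of the chains was 0.13, less than that of either gene. Against Col4a1, 0.0825% of all genes passed with a positive slope, and of the 41 collagens 4 did (Col4a2, Col18a1, Col6a3 and Col8a1). Without the 3 tumors with high muscle markers the pair had an adjusted p of 0.0663 (limma), at a slope of 0.28 log2 per SD of Col4a1 in both fits. Without mad550 and mad555 the slope was 0.17 and the adjusted p 0.371 (limma).

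Col5a1 and Col5a2 correlated at r = 0.88 (rho = 0.85, permutation p = 2e-05 and 9e-05, adjusted p by limma 0.00331). Without mad555 and mad563 the adjusted p was 0.233 (limma) and the slope 0.38 in place of 0.57 log2 per SD of Col5a1. Of all genes 0.104% passed against Col5a1 with a positive slope, and of the 41 collagens 4 did (Col5a2, Col1a2, Col3a1 and Col8a1). Col1a1 and Col1a2 were at the threshold (r = 0.82, rho = 0.84, permutation p = 7e-05 and 5e-05, adjusted p by limma 0.0494). Their call was lost when any 1 of 11 tumors was left out, and without mad563 the adjusted p was 0.80 by limma. Without mad561 and mad563, r was 0.70. Against Col1a1, 0.022% of all genes passed with a positive slope, and 2 of the 41 collagens were among them (Col5a2 and Col1a2).

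Across types, Col1a1 and Col3a1 correlated at r = 0.80 (rho = 0.73, permutation p = 0.00014 and 0.00117) with an adjusted p of 0.0682 by limma, and r fell to 0.55 without mad561 and mad563. For Col1a1 and Col6a1, r was 0.65 (rho = 0.65, permutation p = 0.00521 and 0.00618, adjusted p by limma 0.477). For Col1a1 and Col4a1, r was 0.60 (rho = 0.70, permutation p = 0.0111 and 0.00237, adjusted p by limma 0.638). None of these 3 pairs passed over all genes. In all, 13 pairs were computed.

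The other 5 pairs of 1 type did not pass. Col9a1 and Col9a3, both above the array median, had r = -0.26 (rho = -0.19, permutation p = 0.293 and 0.457), and 0% of all genes passed against Col9a1. For Col4a3 with Col4a4, Col4a5 with Col4a6, Col8a1 with Col8a2 and Col11a1 with Col11a2, at least 1 chain was below the array median, and r lay between -0.14 and 0.38. Against Col4a3, 0% of all genes passed, and against Col4a5 0.011%. Against Col8a1, 0.368% of all genes passed with a positive slope and 11 of the 41 collagens did, among them chains of types I, III, IV, V, VI, XV and XVIII, but not Col8a2. Col5a2 led them (r = 0.93 with Col8a1, adjusted p by limma 0.000122).

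Among the 10 pairs of Col1a1, Col1a2, Col3a1, Col5a1 and Col5a2, r had a median of 0.87 (0.74 to 0.94). The 6 pairs of Col4a1, Col4a2, Col15a1 and Col18a1 had a median of 0.87 (0.67 to 0.92). Between those 2 sets the median over 20 pairs was 0.65 (0.41 to 0.78), and between the type I, III and V set and type VI it was 0.70 over 15 pairs (0.57 without mad563). Type VI with the type IV, XV and XVIII set gave 0.76 over 12 pairs, with Col18a1 and Col6a3 at 0.90. These correlations share the same 17 arrays and have no test. Col7a1, Col9a1, Col9a3 and Col25a1 had a median r of -0.25, 0.0017, -0.19 and -0.023 with the 12 genes named in these sets and Col8a1. For Col16a1, Col12a1 and Col27a1 it was also low, at 0.215, 0.254 and 0.288, and for Col14a1 and Col5a3 it was 0.459 and 0.577. These values rest on the probe set of highest mean, and the other probe set of Col25a1 was not compared.

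**Figure D3:**
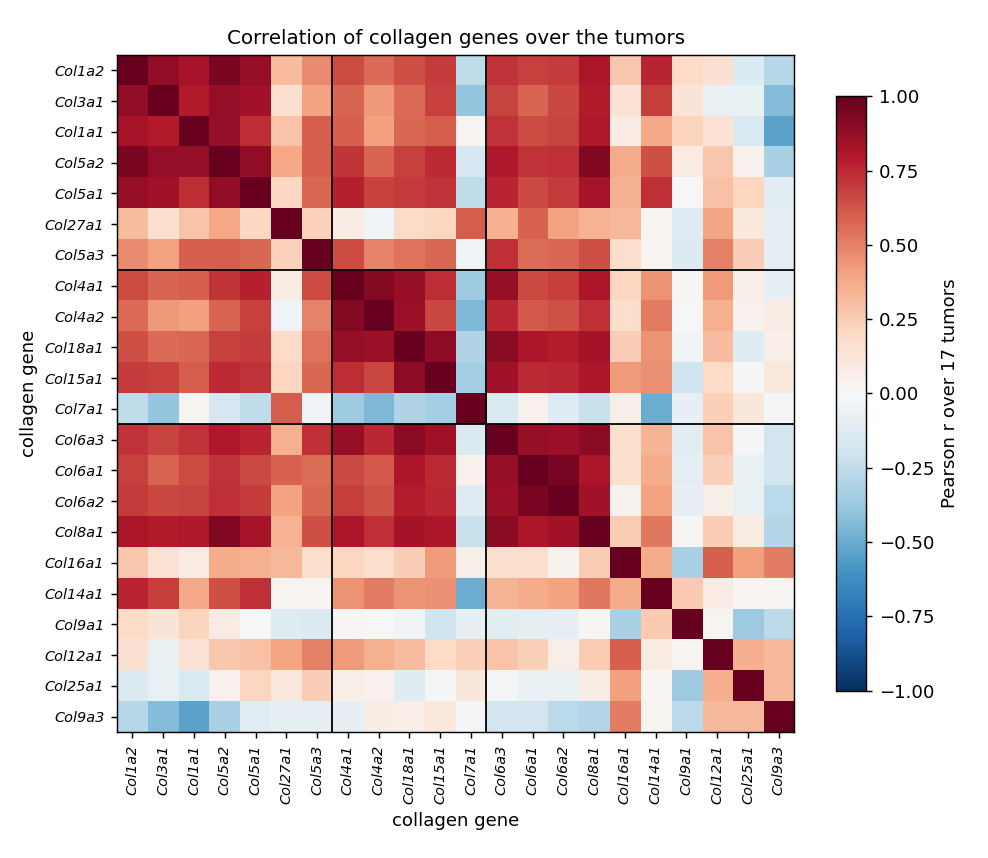
Pearson r over 17 tumors for every pair of the 22 collagen genes at or above the array median, in the same order on both axes, with lines between fibrillar, basement membrane and other collagens. Types I, III and V (less so Col5a3), types IV, XV and XVIII and types VI and VIII form red blocks. Col7a1, Col9a1, Col9a3, Col12a1, Col16a1, Col25a1 and Col27a1 lie outside them.

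To ask which stromal cells the collagens varied with, each gene was regressed on scores of cell type markers that hold no collagen. A score is the mean log2 value of a list, scaled to an SD of 1 over the tumors, so a slope is the log2 change per SD of the score. The mural score (10 genes of pericytes and vascular smooth muscle) ran from 8.14 in mad563 to 9.40 in mad555, with 9 of its genes at or above the array median. The fibroblast score (13 measured genes, 7 at or above the array median) ran from 6.78 in mad551 to 8.19 in mad553. The 2 scores were weakly related (r = 0.25, rho = -0.03, permutation p = 0.33 and 0.921). The fibroblast score varied with a score of fat cell markers, the adipose score (r = 0.59, rho = 0.69, permutation p = 0.0125 and 0.00291). Its highest tumor, mad553, also had the highest skeletal muscle markers (12.45). The part of fat and muscle tissue in the fibroblast results was not tested.

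With the mural score, 5 of the 42 collagen genes were higher (limma, adjusted p under 0.05) and none lower, against 0.539% of all 18183 genes tested that were higher. They were the 3 common type VI chains, Col8a1 and Col18a1. Col6a1 rose by 0.46 ± 0.06 log2 per SD (SE, n = 17, adjusted p by limma 0.000881), Col6a2 by 0.44 ± 0.06 (0.00285) and Col6a3 by 0.53 ± 0.09 (0.00971). Col8a1 rose by 0.58 ± 0.10 (0.0072), which is 1.5-fold per SD, and Col18a1 by 0.48 ± 0.08 (0.0072). The type IV chains came next without passing, with Col4a2 at 0.22 ± 0.05 (0.0544) and Col4a1 at 0.24 ± 0.06 (0.0718). The highest fibrillar gene in this fit was Col5a2, at 0.43 ± 0.11 (adjusted p by limma 0.0916). The median slope of the 42 genes was 0.05 and that of all genes -0.02.

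Over the tumors Col6a1 followed the mural score at r = 0.90 (rho = 0.90, permutation p = 1e-05 for both). Without mad555 and mad563, the tumors at the ends of the score, r was 0.83. Without these 2 tumors only Col6a1 of the 5 kept its call (adjusted p by limma 0.0325, slope 0.35), and the others had adjusted p of 0.0593 to 0.126. Over the whole array 24 genes in place of 98 were then higher. Without mad563 alone, Col6a1, Col6a2 and Col18a1 passed, and 28 genes in place of 98 were higher over the whole array. Without mad549, mad550 and mad553, which had high muscle markers, 4 of the 5 passed, and Col8a1 had an adjusted p of 0.0651 (limma). In that fit 26 genes were higher over the whole array. On ranks no gene of the array passed. That fit gave Col6a1, Col6a2, Col6a3 and Col18a1 the same SE of 1.24. Col6a1, with rho = 0.90, then had an adjusted p of 0.225 (limma). The rank fit could thus hardly pass a gene, and nothing is concluded from it.

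The mural genes did not contribute alike. Col6a1 correlated at 0.89 with Notch3, the receptor that maintains vascular smooth muscle, at 0.87 with Pdgfrb, the receptor that recruits pericytes, and at 0.82 with the pericyte gene Rgs5, but at 0.41 with Kcnj8 and 0.34 with Cnn1. Col8a1 correlated at 0.93 with Acta2, smooth muscle actin, and at 0.10 with Kcnj8. Over the 10 genes the median r of Col6a1 was 0.73, and over the 13 fibroblast genes 0.12. Acta2 and Pdgfrb are also made by activated fibroblasts, so the score is not a count of mural cells. Macrophage markers also varied with the mural score (r = 0.57, rho = 0.60, permutation p = 0.0169 and 0.0119), and their part in these results was not tested.

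With the fibroblast score, no collagen gene and 0% of all 18180 genes passed (limma). At an unadjusted p under 0.05 by limma there were 1290 genes, or 7.10%, 7 of them collagens. The slope was positive for 6 of these 7 and negative for Col9a3 (-0.31 ± 0.13). Col3a1 had the lowest p of the collagens, with a slope of 0.52 ± 0.10 log2 per SD (adjusted p by limma 0.096). It followed the score at r = 0.77 (rho = 0.63, permutation p = 0.00013 and 0.00856) and also at r = 0.77 without mad551 and mad553. Col14a1 (0.51 ± 0.14), Col1a2 (0.41 ± 0.11), Col5a2 (0.37 ± 0.12), Col1a1 (0.35 ± 0.13) and Col5a1 (0.22 ± 0.08) came next, each with an adjusted p above 0.4 (limma). With the mural score the slopes of Col5a2 (0.43 ± 0.11), Col1a1 (0.40 ± 0.12) and Col5a1 (0.24 ± 0.08) were larger than these. The mural slopes of Col1a2 (0.38 ± 0.12), Col14a1 (0.32 ± 0.17) and Col3a1 (0.35 ± 0.14) were smaller. None of these genes passed with either score. Of the single fibroblast genes, Postn, a matrix protein of activated fibroblasts, was closest to Col3a1 (r = 0.86) and to Col1a1 (r = 0.79), while Dcn, decorin, had r = 0.56 and 0.28 with them. Postn also correlated with Col8a1 at r = 0.74. Over the 13 fibroblast genes the median r was 0.53 for Col3a1 and 0.29 for Col1a1. The lowest was Tcf21, at -0.209 and -0.375. Over the 10 mural genes the medians were 0.51 and 0.56. Col6a1 was related to the fibroblast score only at r = 0.25 (rho = 0.01, permutation p = 0.334 and 0.982).

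**Figure D4:**
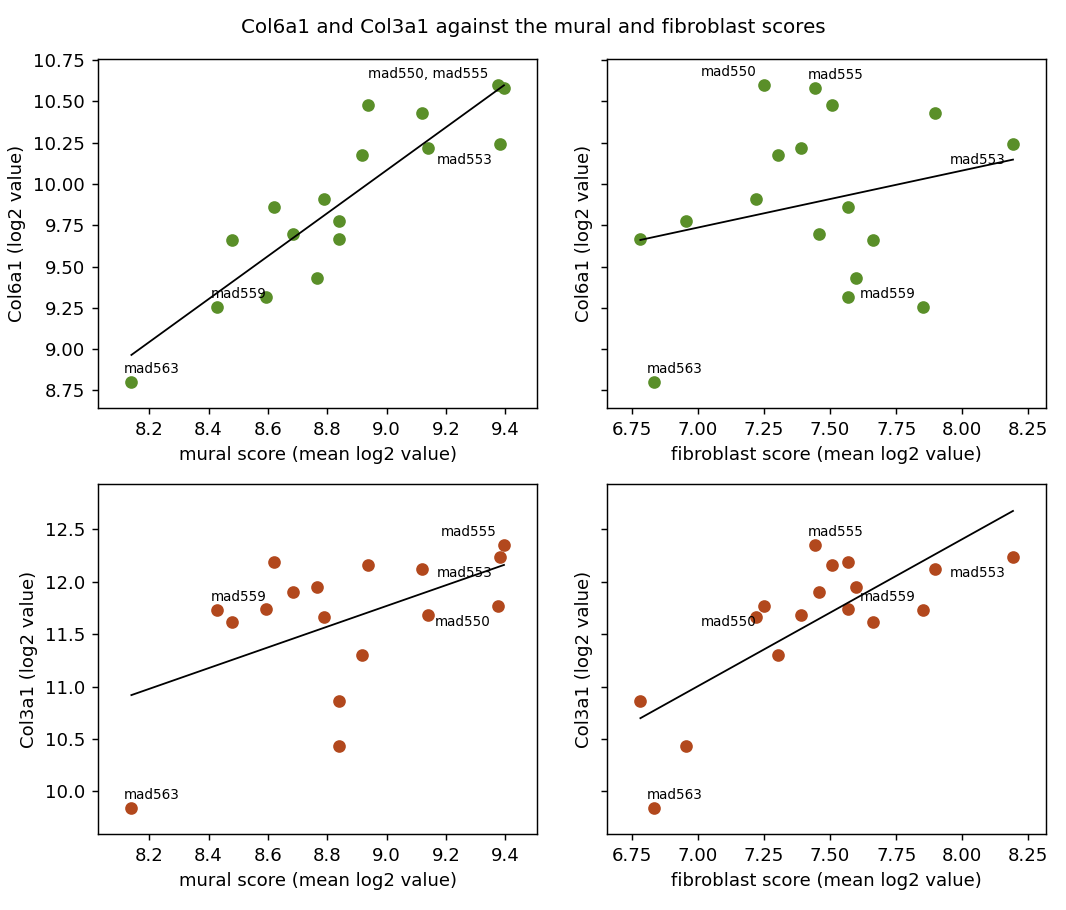
Log2 value of Col6a1 (top) and Col3a1 (bottom) against the mural score (left) and the fibroblast score (right), 1 point per tumor, with the fitted line. Col6a1 follows the mural score (r = 0.90) and scatters against the fibroblast score (r = 0.25), and Col3a1 follows the fibroblast score at r = 0.77 and the mural score at r = 0.52.

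With both scores in 1 fit, a choice made after the data were seen, the same 5 collagens passed for the mural slope (adjusted p by limma 0.00305 to 0.0187) and none for the fibroblast slope. Col6a1 had a mural slope of 0.46 ± 0.06 beside a fibroblast slope whose difference from it was -0.44 ± 0.10 (unadjusted p = 0.00022, adjusted p by limma 0.383). Col3a1 had a fibroblast slope of 0.46 ± 0.09 beside a mural slope of 0.23 ± 0.09. The difference between the slopes passed for 0% of all genes, so no collagen was shown to vary with 1 score more than with the other. At an unadjusted p under 0.05, which 6.63% of all genes reached in either direction, it was negative, toward the mural score, for 7 of 42 collagens (Col6a1, Col18a1, Col6a3, Col6a2, Col4a2, Col4a1 and Col8a1) and positive for none.

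**Figure D5:**
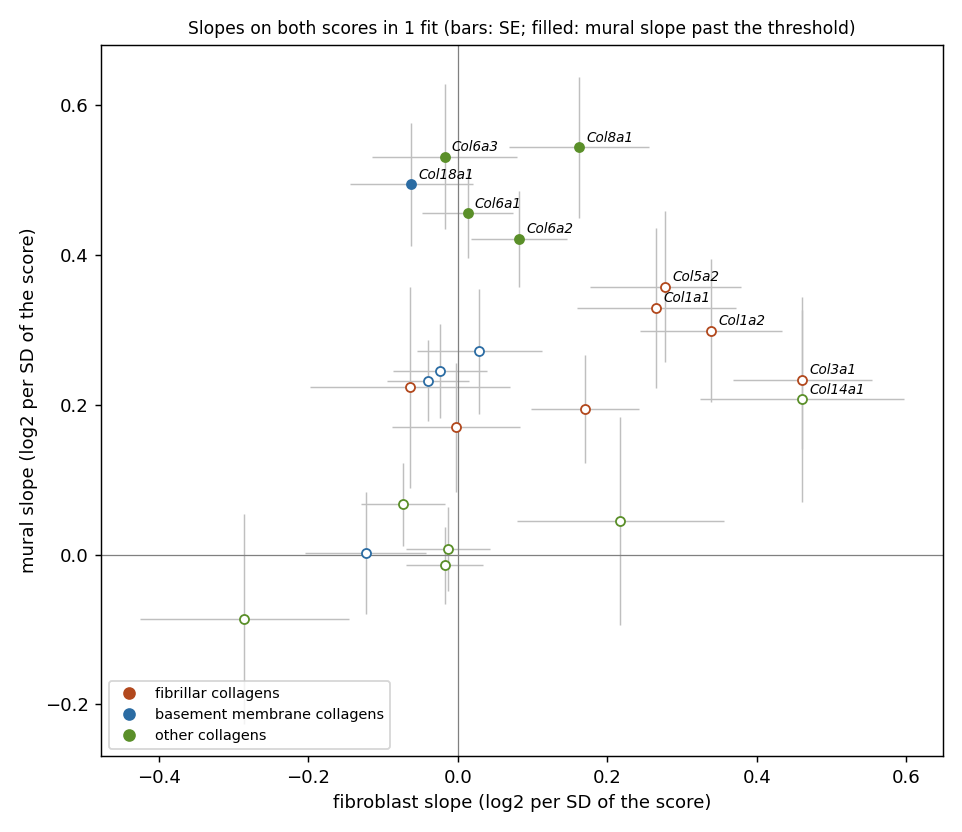
Slopes of the 22 collagen genes at or above the array median on the fibroblast score (x axis) and the mural score (y axis) in a joint fit, in log2 per SD of the score, with bars of 1 SE; filled points passed for the mural slope. The 3 common type VI chains, Col8a1 and Col18a1 lie high on the mural axis, and Col3a1 and Col14a1 lie farthest along the fibroblast axis at 0.46 each.

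With the endothelial score (14 genes), no collagen passed, against 0.308% of all genes higher. Col4a2 had the lowest p (slope 0.19 ± 0.06, adjusted p by limma 0.171, r = 0.63), and 7 of 42 collagens, 5 with a positive slope, had an unadjusted p under 0.05, against 12.9% of all genes. Without mad554, Col6a1, Col6a2 and Col18a1 passed (adjusted p by limma 0.0141 to 0.0309), and 394 genes in place of 56 were higher over the array. The endothelial and mural scores were related (r = 0.66, rho = 0.70, permutation p = 0.0036 and 0.00253). The fibroblast slope differed from the endothelial slope for 0% of all genes. With the Schwann score (8 measured genes, 2 at or above the array median) 0% of all genes and no collagen passed, and with the adipose score 0.126% of all genes were higher and no collagen. At an unadjusted p under 0.05 there were 7 of 42 collagens with the Schwann score, against 14% of all genes, and 2 with the adipose score, against 7.20%, so these counts are near the background.

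The genes most like a leading chain were taken from all 18192 others by Pearson r over the 17 tumors. Outside the collagens, those most like Col1a1 were Kdelr3 (r = 0.89), a receptor that returns proteins to the endoplasmic reticulum, Fstl1 (0.85), a secreted glycoprotein of mesenchymal cells, Rfx2 (0.82), Trim47 (0.80) and Thbs2 (0.80), a matrix thrombospondin. For Col4a1 they were Nid1 (0.89), nidogen, which ties type IV collagen to laminin, Itga1 (0.85), the alpha subunit of a collagen receptor, Fmod (0.84), fibromodulin, Cd93 (0.84), an endothelial surface protein, and Cd109 (0.84). For Col6a1 they were Itgb5 (0.93), an integrin subunit, Notch3 (0.89), Ahnak (0.88), Pdgfrb (0.87) and Cd300lb (0.86). Notch3 and Pdgfrb are also in the mural score. Ranked among all genes, Col5a2 held place 2 for Col1a1 (r = 0.88), and Col18a1 and Col6a3 held places 3 and 4 for Col4a1 (0.87 each).

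The patterns of Col27a1 and of the cartilage chains were looked up after their values had been seen. Col27a1 was most like Krt17 (r = 0.91), Ehd3 (0.91), Mfge8 (0.90) and Vgf (0.87), a neuropeptide precursor, with Chga, chromogranin A of secretory granules, at 0.85. Col9a3 was most like Stmn3 (0.95), a microtubule regulator of neurons, and Rusc1 (0.91). Col11a1 ran from 4.82 in mad562 through 5.32 to 7.02 in mad563, with mad560 next at 6.02, and was most like Syt16 (0.92), Lrrcc1 (0.92) and Klc1 (0.91), a kinesin light chain. Of all genes 3.39% passed against Col11a1 with a positive slope, and Col9a3 was the 1 collagen among them (r = 0.72, adjusted p by limma 0.0217). Without mad563 no gene passed, and r of Col11a1 and Col9a3 was 0.38, so the relation rested on that tumor. In the same way, r of Col9a3 with Col1a1 was -0.54 with mad563 and -0.19 without it.

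Of 97 other genes of the collagen pathway, 90 were measured, in 7 lists. With the mural score 6 of the 90 were higher and none lower, against 0.539% of all genes higher, and with the fibroblast score none passed. Their median mural slope was 0.07 (all genes -0.02). Among the 12 partners that bind collagen fibrils, 4 were higher with the mural score. They were Bgn, biglycan (slope 0.46 ± 0.08, adjusted p by limma 0.00875), Aspn, asporin (0.37 ± 0.06, 0.00875), Sparc, a collagen-binding glycoprotein (0.34 ± 0.06, 0.0154), and Tnc, tenascin C (0.38 ± 0.08, 0.0305). The median mural slope of this list was 0.36. Sparcl1, a relative of Sparc, was the 1 gene of the lists higher with the endothelial score. With the fibroblast score the 2 lowest p in this list were those of Ogn, osteoglycin (0.69 ± 0.13, adjusted p by limma 0.0888), and Tnxb, tenascin X (0.36 ± 0.08, 0.286). Tgfbi ran from 7.78 in mad563 to 11.82 in mad562 and Fmod from 5.71 in mad563 to 9.19 in mad556, the largest spreads of the list.

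Of 9 measured collagen receptors, 1 was higher with the mural score, Itga1 (0.44 ± 0.09, adjusted p by limma 0.0187, lowest at 6.13 in mad563 and highest at 8.76 in mad555). Ddr2, a receptor kinase for fibrillar collagen, had a fibroblast slope of 0.25 ± 0.11 (0.669). Of 13 genes of collagen breakdown, 1 was higher with the mural score, the membrane collagenase Mmp14 (0.35 ± 0.07, adjusted p by limma 0.0305). The inhibitors Timp2 (fibroblast slope 0.21 ± 0.06) and Timp1 (SD 0.57) and the proteases Ctsk (fibroblast slope 0.19 ± 0.07) and Mmp13 (SD 0.76) did not pass.

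In the other 4 lists no gene passed with the fibroblast, mural or endothelial score. Of 20 genes of collagen synthesis and folding, Ppib, a prolyl isomerase, and P3h4 had the lowest p in the fibroblast fit (slopes 0.09 ± 0.03 and -0.16 ± 0.06), and Plod2, a lysyl hydroxylase, and Serpinh1, the collagen chaperone, the largest SD (0.46 and 0.42). Of 12 genes of cleavage and crosslinking, these were Loxl1, a lysyl oxidase (fibroblast slope 0.36 ± 0.08), Pcolce2 (0.44 ± 0.11, SD 0.65) and Pcolce (SD 0.73), enhancers of propeptide removal. All 3 were lowest in mad563. Of 14 basement membrane partners, Lama2 and Lamb3, laminin chains, had both the lowest p and the largest SD (0.44 and 0.52). Of 10 genes of TGF-beta ligands and targets, Ltbp2 had a fibroblast slope of 0.34 ± 0.06 (adjusted p by limma 0.0888), Tgfb1 one of 0.11 ± 0.06, and Ccn2 and Ccn1 had the largest SD (0.62 and 0.56), both with the highest value in mad565.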

How the data were processed

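Total RNA of 17 TH-MYCN mouse tumors was hybridized to Affymetrix arrays, 1 array per tumor. The deposited values are log2 expression values per probe set that the authors made with RMA and Partek 6.4, per the labels, while the methods name MAS5 signals scaled to a fixed target. The values, from 3.28 to 15.59, were used as deposited. The study reports a further tumor that was not analysed here. Of 45101 probe sets, 34945 had 1 gene symbol in the platform annotation, and each of 18193 genes was read from its probe set of highest mean. Every gene was regressed on a score or on a first chain with limma 3.58.1 (lmFit and eBayes, R 4.3.3, two-sided), leaving out the genes of the score or the chain, with Benjamini-Hochberg adjustment over all genes and a threshold of 0.05. Pearson r and Spearman rho were tested with 100000 two-sided permutations (SciPy 1.17.1, NumPy 2.4.6, seed 1) for 13 pairs and 75 relations with scores. The script was tested on simulated data. All collagens are named, with full values at or above the array median. Of each pathway list, the 2 genes of lowest p in the fibroblast fit, the 2 of largest SD and those that passed are named. Members and lists were chosen with earlier results of these data known. Of 42 members, 33 had a RefSeq promoter entry (GRCm38.p6). Nothing states that the tumors share batches, and p-values set a slope or correlation against the variation between these tumors.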

Additional observations from a re-analysis of the deposited data

How the results depend on the processing

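Of the collagen genes, 5 passed with the mural score. The count was 0 on ranks, 2 with the first principal component as a covariate and 1 without mad555 and mad563, the tumors at the ends of the score (chosen after seeing the data), and it ranged from 3 (without mad563) to 7 with each tumor left out in turn. It was 4 to 6 in the other alternatives. Over all 18183 genes, those higher with the mural score numbered 98 in the main fit. They numbered 0 on ranks, 12 with the first principal component, 24 without mad555 and mad563 and 28 without mad563 alone. The fall in the fits other than that on ranks was thus not particular to the collagens. The endothelial score gave 0, and 0 to 3 with each tumor left out (3 without mad554). The fibroblast, Schwann and adipose scores and both differences of slopes gave 0 in every alternative run. Of the pairs, 5 passed, against 0 on ranks, 3 without the 3 tumors with high muscle markers, 1 without the pair of tumors farthest out on the first chain and 4 to 6 with each tumor left out. The counts of 0 on ranks decide nothing, as those fits could hardly pass a gene. Col6a1 and Col6a2, with rho = 0.91, had an adjusted p of 0.211 there (limma). Genes with an SD of at least 0.5 numbered 14, against 8 with the mean of all probe sets, 9 by the median absolute deviation, 22 at an SD of at least 0.3 and 10 to 14 with each tumor left out. No slope of the collagens and pairs that passed, or of Col3a1, Col14a1, Col1a2, Col4a1 and Col4a2, changed sign. The causes were not tested. No paired analysis was possible because the 17 arrays form a single group. With 17 arrays and bulk tissue, relations rest on few tumors, above all mad563 and mad555, and dim probe sets limit what can be said of 20 of the 42 genes.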
